A study of Mus musculus with 8 samples.

Results

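The genes described here encode proteases, protease inhibitors and crosslinking enzymes of the extracellular matrix. The tissue is epididymal white adipose tissue, the visceral fat pad beside the epididymis. They were chosen by name: protein-coding genes of the matrix metalloproteinase (Mmp), tissue inhibitor of metalloproteinases (Timp), Adamts and lysyl oxidase (Lox and Loxl) families, with 1 further Mmp gene not analysed here. The rule found 49 genes of the 55487 gene identifiers in the tables: 21 Mmp, 4 Timp, 19 Adamts and 5 lysyl oxidase genes. Mmp1a also matched the name pattern but is annotated as a polymorphic pseudogene and was not counted.

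RNA was sequenced from the fat pads of 8 male C57BL/6 mice made obese by high-fat feeding. The 4 AKO mice (numbers 3, 8, 9 and 11) carry AP2-Cre and floxed Slc16a1 on both alleles, and their genotype is labelled Slc16a1 -/-. The 4 WT mice (numbers 2, 3, 4 and 5) carry the same floxed alleles and no Cre, so the presence of Cre and the intended deletion cannot be told apart. Slc16a1 encodes MCT1, which moves lactate and other monocarboxylates across the cell membrane, and AP2-Cre is driven by the promoter of Fabp4 (aP2), a fatty acid binding protein gene of adipocytes that macrophages also express. No age was stated in the labels of these mice. Values below are TPM (transcript abundance scaled to a common total per library, the unit the authors deposited) summed over the transcript rows of a gene, and values per mouse follow the orders AKO 3, 8, 9, 11 and WT 2, 3, 4, 5.

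Several facts of the libraries bear on what follows. Slc16a1 summed over its rows was 24.0 ± 2.54 TPM in AKO mice and 21.3 ± 5.78 TPM in WT mice (SD, n = 4 each), so its total does not check the genotype labels. All 15 adipocyte markers were tested, and Adipoq, the adipocyte hormone adiponectin, averaged 2976 ± 821 TPM in AKO mice and 3456 ± 1450 TPM in WT mice. A marker score is the mean log2(TPM + 1) of a marker list in a mouse. The score of lipid-associated macrophages, the Trem2- and Gpnmb-expressing macrophages that surround dying adipocytes in obese fat, was 8.75, 8.45, 9.04 and 8.20 in AKO mice and 8.02, 8.76, 6.51 and 7.70 in WT mice. WT mouse 4 stood apart at the low end of that score, and WT mouse 3 lay inside the range of the AKO mice. Between 66238 and 70374 transcript rows were above 0 in AKO libraries, against 62802 to 66112 in WT libraries, with no overlap. Read depth cannot be recovered from TPM and is unknown here, so counting error cannot be stated. In bulk tissue, fewer cells of a type and less RNA per cell cannot be told apart.

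Matrix metalloproteinases are zinc enzymes that cleave collagens, gelatin and other matrix proteins, and most are secreted as inactive proenzymes. TIMPs block their active site, and TIMP2 also bridges MMP14 and pro-MMP2 at the cell surface, where MMP14 activates MMP2. ADAMTS proteases are secreted relatives that trim procollagens or cleave proteoglycans such as versican and aggrecan, and lysyl oxidases are copper enzymes that oxidise lysines in collagen and elastin so that the fibres become crosslinked. In growing fat pads the matrix around adipocytes has to be opened and rebuilt, and MMP14 is known from mouse studies as a collagenase needed for white fat to expand.

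A set of 5 promoter windows show how differently these genes are laid out at their start sites. Each runs from 250 bases before to 50 bases after the transcription start, is taken from RefSeq on GRCm38.p6 and is written 5′ to 3′ on the gene's strand. Mmp3 lies at chr9:7445572-7445871 (plus strand), Mmp13 at chr9:7272264-7272563 (plus strand), Mmp10 at chr9:7502092-7502391 (plus strand), Mmp14 at chr14:54431348-54431647 (plus strand) and Timp2 at chr11:118355362-118355661 (minus strand). Capitals mark the AP-1 motif TGANTCA, the TATA box TATAAA and the GC box GGGCGG, searched on both strands. The windows of 3 genes of the Mmp cluster on chromosome 9 are shown beside those of the membrane collagenase Mmp14 and its partner Timp2, which are among the most abundant genes of the set.
Mmp3: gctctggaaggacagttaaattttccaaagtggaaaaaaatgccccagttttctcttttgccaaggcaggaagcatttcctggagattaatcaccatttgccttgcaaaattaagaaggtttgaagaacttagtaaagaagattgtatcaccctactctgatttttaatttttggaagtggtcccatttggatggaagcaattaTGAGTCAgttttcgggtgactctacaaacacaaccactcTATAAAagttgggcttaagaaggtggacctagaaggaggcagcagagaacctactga
Mmp13: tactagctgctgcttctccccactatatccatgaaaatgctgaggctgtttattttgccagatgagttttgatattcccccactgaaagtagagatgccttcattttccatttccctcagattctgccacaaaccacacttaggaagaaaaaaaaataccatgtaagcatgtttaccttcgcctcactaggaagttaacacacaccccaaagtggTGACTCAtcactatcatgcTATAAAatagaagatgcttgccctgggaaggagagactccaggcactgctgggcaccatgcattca
Mmp10: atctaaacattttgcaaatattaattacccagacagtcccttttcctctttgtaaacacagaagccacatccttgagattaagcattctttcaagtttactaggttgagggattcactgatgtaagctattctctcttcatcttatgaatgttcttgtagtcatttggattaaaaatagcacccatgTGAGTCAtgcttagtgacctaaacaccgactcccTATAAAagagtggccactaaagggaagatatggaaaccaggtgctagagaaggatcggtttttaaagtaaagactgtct
Mmp14: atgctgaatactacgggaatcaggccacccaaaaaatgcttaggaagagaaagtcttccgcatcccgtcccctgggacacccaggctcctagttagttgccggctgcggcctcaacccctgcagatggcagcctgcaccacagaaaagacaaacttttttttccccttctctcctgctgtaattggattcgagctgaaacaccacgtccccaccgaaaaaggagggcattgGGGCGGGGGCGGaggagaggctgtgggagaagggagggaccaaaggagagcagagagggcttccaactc
Timp2: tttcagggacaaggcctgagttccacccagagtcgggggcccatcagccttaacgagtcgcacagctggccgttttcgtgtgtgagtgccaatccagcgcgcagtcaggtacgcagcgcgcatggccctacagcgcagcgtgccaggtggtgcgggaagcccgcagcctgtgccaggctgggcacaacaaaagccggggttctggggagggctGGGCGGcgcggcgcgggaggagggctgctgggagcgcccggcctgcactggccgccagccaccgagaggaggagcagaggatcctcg

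In the 3 cluster genes an AP-1 motif stood upstream of a TATA box, with its first base at -46 in Mmp3, -35 in Mmp13 and -63 in Mmp10, counted from the transcription start. The TATA boxes began at -7, -16 and -29 in the same genes. Mmp14 and Timp2 held neither motif in these windows, and held GC boxes at -19 and -13 (Mmp14, side by side) and at -37 (Timp2). Of the 49 genes, 31 matched the RefSeq table, with 33 windows. AP-1 and TATA motifs occurred together in 6 of the 33 windows, those of Mmp1b, Mmp3, Mmp7, Mmp10, Mmp13 and Mmp20, against 1.54% of all 32851 windows in the table. A GC box occurred in 19 of the 33 windows and in 35.7% of all windows. AP-1, with or without a TATA box, was in the same 6 of the 33 and in 7.81% of all. The TATA box, with or without AP-1, was in 9 of the 33 and in 13.6% of all. These are letter matches and not shown binding sites.

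Of the 4 inhibitors, 3 were the most abundant genes of the set. TPM is scaled to transcript length, so levels can be set side by side. Timp genes together held between 42.4% and 57.2% of the summed TPM of the 49 genes in each mouse, and Mmp genes between 18.02% and 31.3%. Timp2, Timp3 and Timp4 were the 3 genes with a mean of at least 100 TPM, while Timp1 had a mean of 36.7 TPM, below the next 7 genes. Mmp2 (mean 76.3 TPM), Mmp14 (61.8), Mmp19 (60.2), Loxl1 (55.9), Adamts2 (51.8), Lox (50.2) and Adamts5 (48.4) followed Timp4, and the ranges of these 7 over the mice overlapped. In all, 20 genes had a mean of at least 10 TPM and 27 reached 1 TPM in every mouse.

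At the other end, 3 genes, Mmp1b, Mmp20 and Mmp21, were listed at 0 in all 8 mice, and 15 more were detected but stayed below the filter for testing (at least 1 TPM in at least 4 mice). Of the 18 genes left untested, 17 were under 1 TPM in every mouse, the exception being Mmp7. Of the Mmp genes, 8 lie on chromosome 9, and only 3 of them, Mmp3, Mmp13 and Mmp27, passed the filter. Mmp10, a stromelysin whose promoter window has the same pair of motifs as that of Mmp3, had 0.42, 0.06, 0.30 and 0.00 TPM in AKO mice and 0.21, 0.30, 0.00 and 0.04 TPM in WT mice. Mmp8, the collagenase of neutrophils, lay between 0.02 and 0.45 TPM in AKO mice and between 0.09 and 0.15 TPM in WT mice. The other low genes were the Mmp genes Mmp16, Mmp17, Mmp24 and Mmp25 and the Adamts genes Adamts3, Adamts8, Adamts13, Adamts16, Adamts17, Adamts18, Adamts19 and Adamts20, among which the highest value in any mouse was 0.78 TPM (Mmp17). Over the 18 untested genes the smallest two-sided exact permutation p was 0.171, where 4 against 4 mice allow 0.0286.

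**Figure D1:**
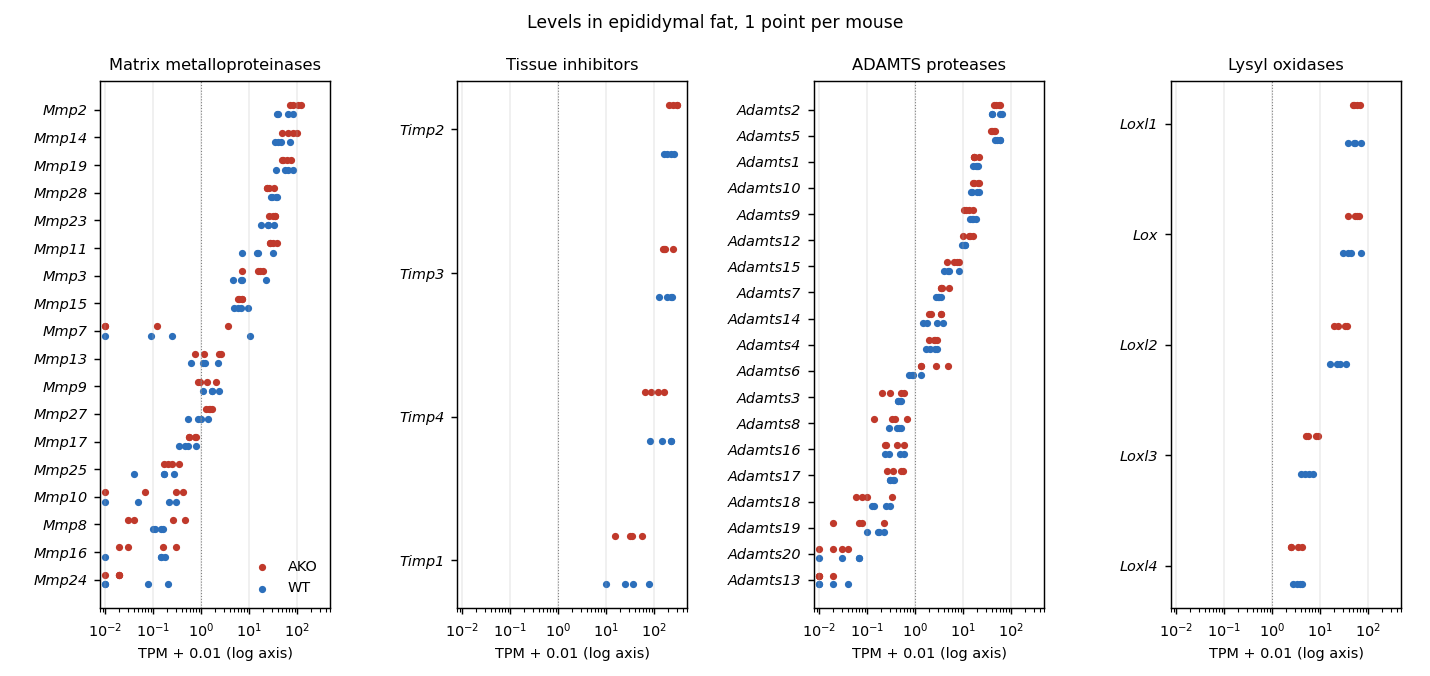
Level of each gene with a value above 0, as TPM + 0.01 on a log axis, with 1 point per mouse (AKO red, WT blue) and a dotted line at 1 TPM on the same axis. Timp2, Timp3 and Timp4 lie at the top of the scale, and the low Mmp and Adamts genes lie below the dotted line in both groups.

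AKO was compared with WT in a single limma fit (moderated linear models on log2(TPM + 1)) over 14172 genes, with Benjamini-Hochberg adjustment over all of them. None of the 31 genes of the set that could be tested (11 Mmp, 4 Timp, 11 Adamts, 5 lysyl oxidase) passed an FDR of 0.05, which 4 genes, or 0.0282% of all tested, did (0.0212% higher and 0.00706% lower in AKO mice), and the lowest limma FDR in the set was 0.831. At an unadjusted limma p under 0.05, 5 of the 31 (16.1%) were counted, against 4.75% of all genes. Of these 5, Mmp2, Mmp11, Mmp14 and Adamts6 were higher in AKO mice (2.58% of all genes were in that direction), and Adamts5 was lower (2.17% of all genes). The log2 change was above 0 for 21 of the 31 genes, against 53.8% of all genes, with a median of 0.14 over the set and 0.015 over all genes. By family, the median was 0.35 over the Mmp genes (7 above 0, 4 below), 0.01 over the Timp genes (2 above, 2 below), 0.08 over the Adamts genes (8 above, 3 below) and 0.18 over the lysyl oxidases (4 above, 1 below).

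**Figure D2:**
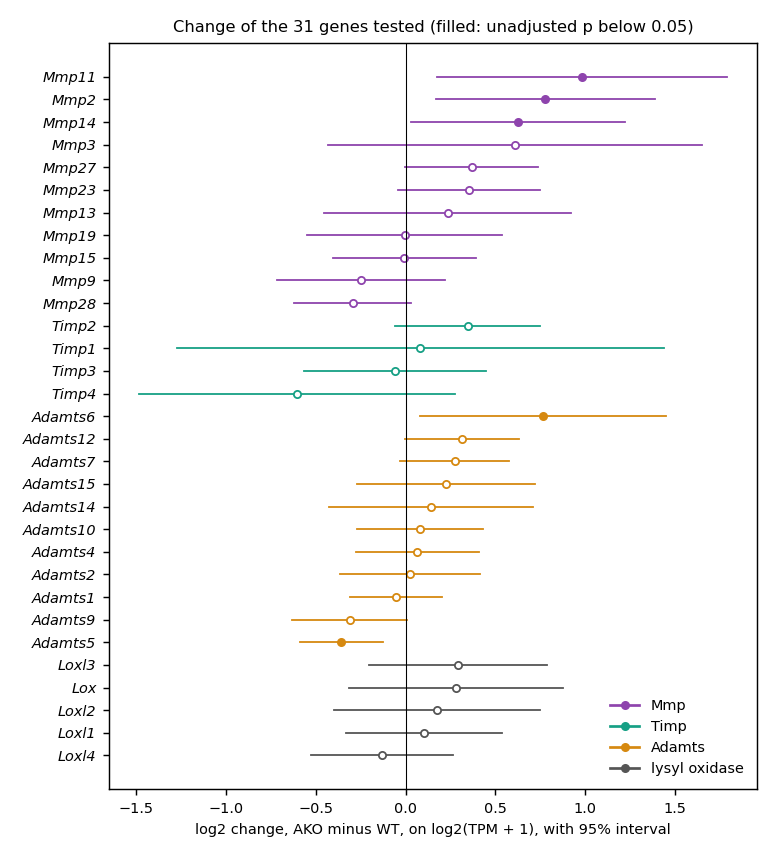
Log2 change (AKO minus WT, on log2(TPM + 1)) of the 31 tested genes with its 95% interval from limma, grouped and coloured by family, with filled points where the unadjusted p was under 0.05. The intervals of Mmp2, Mmp11, Mmp14, Adamts6 and Adamts5 leave out 0 before adjustment, and those of the other 26 genes include it.

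Among the proteases, Mmp2 and Mmp14 had the highest levels. Mmp2, a gelatinase that also cleaves basement membrane collagen, had 105, 83.4, 120 and 73.2 TPM in AKO mice and 66.9, 83.3, 38.2 and 40.5 TPM in WT mice. Every AKO mouse but number 11 was above every WT mouse, with WT mouse 3 reaching the level of AKO mouse 8. The means were 95.4 ± 21.0 TPM in AKO mice and 57.2 ± 21.7 TPM in WT mice (SD, n = 4 each). On the log2 scale the difference was 0.78 ± 0.27 (SE), with limma p = 0.018 and FDR = 0.831 and a two-sided exact permutation p of 0.057.

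Mmp14, the membrane-bound collagenase that activates MMP2, had 81.9, 67.0, 101 and 50.2 TPM in AKO mice and 47.1, 71.3, 34.5 and 41.2 TPM in WT mice. WT mouse 3 was above AKO mice 8 and 11, so the groups overlapped. The log2 difference was 0.62 ± 0.26 (SE), with limma p = 0.041, FDR = 0.831 and exact permutation p = 0.086.

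Mmp11, or stromelysin 3, which is made by stromal cells and activated inside the cell, had 27.4, 32.4, 38.7 and 27.2 TPM in AKO mice and 31.3, 15.2, 15.04 and 7.31 TPM in WT mice. WT mouse 2 lay within the AKO range, and the other 3 WT mice were below it. The log2 difference, 0.98 ± 0.35 (SE), was the largest of the 31 genes in the limma fit (p = 0.023, FDR = 0.831, exact permutation p = 0.086). Exons of Mmp11 overlap those of Chchd10 on the opposite strand, and the labels do not say whether the counting used strand. Chchd10 had 94.9, 88.7, 173 and 121 TPM in AKO mice and 146, 109, 37.4 and 67.1 TPM in WT mice, and its part in the Mmp11 values was not tested.

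Single mice changed these values. In the limma fits that left out 1 mouse at a time, Adamts5 kept an unadjusted p under 0.05 each time, between 0.0019 and 0.023. Mmp2 reached 0.051 without AKO mouse 9 and 0.054 without WT mouse 5, and Mmp11 reached 0.058 without AKO mouse 9. The highest values of Mmp14 (0.110) and Adamts6 (0.075) came without AKO mouse 9 and without AKO mouse 8. Without WT mouse 3, 10 genes of the set were under 0.05 in place of 5, at a lowest limma FDR of 0.332. These 10 were Mmp2, Mmp3, Mmp11, Mmp14, Mmp23, Timp2 and Lox, higher in AKO mice, and Timp4, Adamts5 and Adamts9, lower in AKO mice. Without AKO mouse 9 the count was 2, and it was 3 without WT mouse 4 or WT mouse 5. The shares of all genes under 0.05 in these smaller fits are not given here. These counts therefore cannot be set beside the 4.75% of all genes in the full fit.

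**Figure D3:**
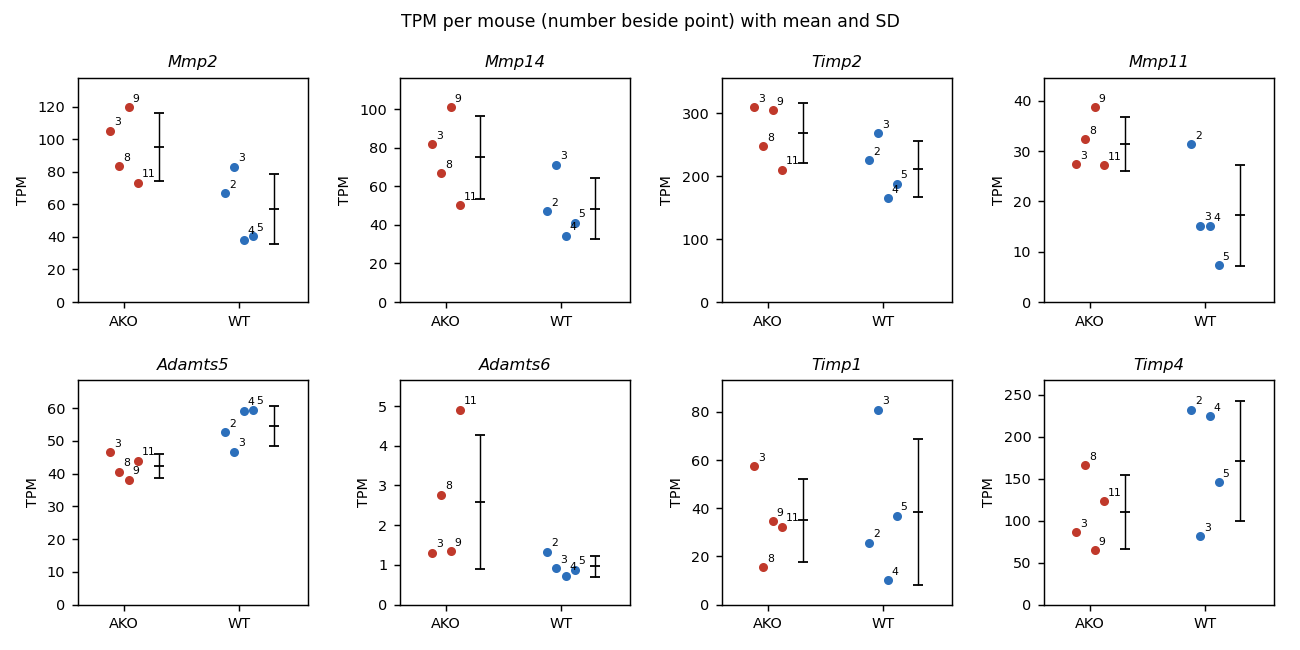
TPM per mouse (mouse number beside each point) in AKO and WT fat for 8 genes, with the mean and SD of each group in black. For Mmp2, Mmp14 and Timp2 the highest WT point is mouse 3 and the lowest WT point is mouse 4, and Adamts5 is lower in every AKO mouse than in any WT mouse.

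The other tested Mmp genes had an unadjusted limma p over 0.05. Mmp19, a secreted protease of basement membrane proteins, had 74.6, 50.3, 62.8 and 49.7 TPM in AKO mice and 66.6, 82.7, 37.2 and 57.9 TPM in WT mice, a log2 difference of -0.01. Mmp23, a membrane-anchored protease that is released by cleavage, had 34.8, 34.7, 31.5 and 26.5 TPM in AKO mice and 24.6, 32.7, 17.8 and 25.5 TPM in WT mice, a log2 difference of 0.35 with limma p = 0.073 and exact permutation p = 0.086. For Mmp23 too, WT mouse 3 was the WT mouse that reached the AKO range.

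Mmp28, or epilysin, had 24.4, 34.1, 24.3 and 26.3 TPM in AKO mice and 28.4, 30.1, 39.1 and 36.9 TPM in WT mice. It was lower in AKO mice on average, by a log2 difference of -0.29 (limma p = 0.070, exact permutation p = 0.114), with AKO mouse 8 inside the WT range. Mmp3, or stromelysin 1, had 16.9, 7.03, 19.3 and 15.4 TPM in AKO mice and 7.28, 22.7, 4.65 and 6.96 TPM in WT mice. The log2 difference was 0.61 ± 0.46 (SE), with limma p = 0.215 and exact permutation p = 0.371, and it was 1.04 without WT mouse 3. The values of Mmp3 fell into a high set of AKO mice 3, 9 and 11 with WT mouse 3 and a low set of AKO mouse 8 with the other 3 WT mice.

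Of the least abundant tested Mmp genes, Mmp27 had 1.30, 1.51, 1.71 and 1.45 TPM in AKO mice and 0.85, 1.0, 0.54 and 1.42 TPM in WT mice, a log2 difference of 0.37 with limma p = 0.051 and exact permutation p = 0.057. Only WT mouse 5 reached the AKO range. The membrane-type protease gene Mmp15 lay between 5.88 and 7.20 TPM in AKO mice and between 4.89 and 9.47 TPM in WT mice. Mmp13, the main interstitial collagenase of the mouse, lay between 0.73 and 2.68 TPM in AKO mice and between 0.61 and 2.28 TPM in WT mice. The gelatinase Mmp9 lay between 0.85 and 2.03 TPM in AKO mice and between 1.11 and 2.33 TPM in WT mice. The groups overlapped for all 3.

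The 4 inhibitors did not share a direction. Timp2, which blocks MMP2 and takes part in its activation, had 309, 248, 304 and 210.2 TPM in AKO mice and 225, 268, 165 and 188 TPM in WT mice. Its means were 268 ± 47.5 TPM in AKO mice and 211 ± 44.9 TPM in WT mice (SD, n = 4 each), a log2 difference of 0.35 with limma p = 0.084, exact permutation p = 0.143 and overlapping groups. Timp3, which binds to the matrix and also inhibits ADAM and ADAMTS proteases, had 162, 246, 157 and 168 TPM in AKO mice and 227, 125, 236 and 184 TPM in WT mice, a log2 difference of -0.06. WT mouse 3 was lowest of all 8 for this gene, and AKO mouse 8 highest.

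Timp4, the inhibitor that is enriched in adipocytes, had 86.0, 166, 64.9 and 123 TPM in AKO mice and 232, 81.7, 224 and 146 TPM in WT mice. The log2 difference was -0.61 ± 0.39 (SE), with limma p = 0.152 and exact permutation p = 0.257, and WT mice 3 and 5 lay inside the AKO range. Timp1, a secreted inhibitor induced in inflamed and fibrotic tissue, had 57.3, 15.6, 34.6 and 32.4 TPM in AKO mice and 25.6, 80.9, 10.03 and 37.0 TPM in WT mice. Its highest value was 8.07 times its lowest, and its group means were 34.965 ± 17.2 TPM in AKO mice and 38.4 ± 30.4 TPM in WT mice (SD, n = 4 each). The mouse-to-mouse spread of Timp1 thus left a 95% interval from -1.27 to 1.44 for its log2 difference in the limma fit.

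Summed over the families, Mmp genes had 349 ± 59.2 TPM in AKO mice and 268 ± 69.9 TPM in WT mice, and Timp genes 596 ± 62.5 TPM in AKO mice and 614 ± 74.1 TPM in WT mice (SD, n = 4 each). A group of 4 ratios was formed after the values were seen, so they are given without a test. Mmp2 over Timp2 was 0.341, 0.337, 0.394 and 0.348 in AKO mice and 0.297, 0.311, 0.231 and 0.216 in WT mice. The AKO mice were all above the WT mice in this ratio, with WT mouse 3 nearest to them. The groups overlapped in the other 3. Mmp14 over Timp2 ranged from 0.239 to 0.332 in AKO mice and from 0.209 to 0.266 in WT mice, and Mmp2 over Mmp14 from 1.18 to 1.46 in AKO mice and from 0.983 to 1.42 in WT mice. Timp4 over Timp1 ranged from 1.499 to 10.6 in AKO mice and from 1.01 to 22.4 in WT mice.

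Among the Adamts genes, Adamts5, an aggrecanase and versicanase, was the gene of the set with the smallest limma p. It had 46.5, 40.6, 38.1 and 43.9 TPM in AKO mice and 52.6, 46.7, 59.3 and 59.5 TPM in WT mice. All AKO mice were below all WT mice, although AKO mouse 3 and WT mouse 3 differed by little. The log2 difference was -0.36 ± 0.10 (SE), with limma p = 0.0072, FDR = 0.831 and the smallest exact permutation p that 4 against 4 allow, 0.0286.

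Adamts7 was the only other gene of the set whose groups did not overlap, so that 2 of the 31 tested genes did so, against 2.44% of all genes tested (1.11% with AKO above and 1.33% with AKO below). A protease of cartilage oligomeric matrix protein, it had 3.54, 5.22, 3.72 and 3.57 TPM in AKO mice and 3.25, 2.73, 3.46 and 3.05 TPM in WT mice. The gap between the groups was small beside the value of AKO mouse 8, and limma gave a log2 difference of 0.27 with p = 0.074, where the exact permutation p was 0.0286. Its exons overlap those of Tbc1d2b on the opposite strand, which had 17.1 to 33.6 TPM in AKO mice and 16.1 to 26.0 TPM in WT mice. After median-ratio scaling of the libraries the groups of Adamts7 overlapped.

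Adamts6, a protease linked in mice to heart development, had 1.31, 2.77, 1.34 and 4.91 TPM in AKO mice and 1.33, 0.91, 0.73 and 0.88 TPM in WT mice. AKO mice 8 and 11 carried the difference, a log2 change of 0.76 ± 0.30 (SE) with limma p = 0.032 and exact permutation p = 0.057, while AKO mice 3 and 9 were level with WT mouse 2. Adamts9, a versicanase, had 11.8, 16.04, 10.4 and 13.2 TPM in AKO mice and 15.7, 13.9, 18.7 and 16.01 TPM in WT mice. It was lower in AKO mice on average, with a log2 difference of -0.31, limma p = 0.054 and exact permutation p = 0.114. Adamts12 had 14.2, 13.7, 16.2 and 10.02 TPM in AKO mice and 10.6, 11.3, 9.39 and 10.9 TPM in WT mice, a log2 difference of 0.31 with limma p = 0.052 and exact permutation p = 0.114. For Adamts12 only AKO mouse 11 lay in the WT range.

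Adamts2, the procollagen N-proteinase that trims collagen types I to III, was the most abundant Adamts gene. It had 55.6, 45.2, 58.2 and 48.4 TPM in AKO mice and 41.2, 64.9, 40.8 and 60.4 TPM in WT mice, with means of 51.8 ± 6.05 TPM and 51.8 ± 12.6 TPM in the same order (SD, n = 4 each). Adamts1, a versicanase, had 22.0, 16.9, 16.8 and 17.1 TPM in AKO mice and 20.4, 19.7, 19.2 and 16.2 TPM in WT mice. It was the steadiest gene of the 31 tested, with a highest value 1.35 times the lowest. Adamts10, which binds fibrillin, lay between 16.3 and 21.9 TPM in AKO mice and between 14.9 and 22.0 TPM in WT mice. Adamts4, Adamts14 and Adamts15 lay between 1.98 and 8.22 TPM in AKO mice and between 1.49 and 8.47 TPM in WT mice, with overlapping groups for each.

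None of the 5 lysyl oxidase genes had an unadjusted limma p under 0.05. Lox, which crosslinks collagen and elastin, had 58.7, 39.6, 65.8 and 53.0 TPM in AKO mice and 43.9, 72.6, 29.9 and 38.4 TPM in WT mice, a log2 difference of 0.28. Loxl1, which is needed for elastic fibre upkeep, had 68.1, 48.9, 60.01 and 52.4 TPM in AKO mice and 51.8, 72.9, 37.8 and 55.3 TPM in WT mice, a log2 difference of 0.10. In both genes WT mouse 3 was the highest of all 8 mice and WT mouse 4 the lowest.

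Loxl2, a crosslinker of basement membrane collagen, had 36.3, 23.8, 33.0 and 20.07 TPM in AKO mice and 22.3, 35.7, 16.7 and 25.8 TPM in WT mice. Loxl3 had 9.29, 5.66, 8.49 and 5.06 TPM in AKO mice and 5.97, 7.37, 4.88 and 4.12 TPM in WT mice, a log2 difference of 0.29. Loxl4, the least abundant of the 5, had 4.19, 2.56, 2.49 and 3.55 TPM in AKO mice and 2.70, 3.95, 3.41 and 4.25 TPM in WT mice. The groups overlapped for all 5. Together the lysyl oxidases had 150.2 ± 27.2 TPM in AKO mice and 135 ± 41.7 TPM in WT mice (SD, n = 4 each).

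Exons of 11 tested genes overlap those of another gene in the GENCODE annotation, mostly on the opposite strand. Beside Timp4 lies Syn2, with 2.95 to 4.76 TPM in AKO mice and 3.54 to 5.92 TPM in WT mice, and beside Timp3 lies Syn3, with 0.25 to 0.63 TPM in AKO mice and 0.29 to 0.50 TPM in WT mice, both far below the inhibitors. The tables list transcript rows, 194 of them for the 49 genes, without naming the transcript. For 14 of the 31 tested genes more than 90% of the TPM was in a single row, among them Mmp2, Mmp14, Timp2, Timp3 and Adamts5. Adamts10 was spread most widely, with 15.3% in its highest row. Of the 57 rows tested on their own, none passed an FDR of 0.05 in limma (0.021% of all rows did, and the lowest FDR of these rows was 0.815), and 6 had an unadjusted p under 0.05, against 5.56% of all rows. Of the 6, 5 belong to Adamts5, Mmp2 (a pair of rows), Mmp11 and Mmp14. The sixth, row 2 of Mmp23, had 6.04, 7.07, 7.16 and 7.26 TPM in AKO mice and 3.55, 6.67, 3.16 and 2.68 TPM in WT mice, a log2 difference of 0.71 with a limma FDR of 0.834 over all rows.

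Correlations over the 8 mice were computed on log2(TPM + 1) between 21 genes with a mean of at least 5 TPM, which gives 210 pairs, with exact permutation p over pairings and Benjamini-Hochberg adjustment. Mmp3 and Adamts10 were left out because their values fell into 2 separate sets of mice. Of the 210 pairs, 49 had an adjusted permutation p under 0.05, 32 positive and 17 negative. An absolute r of at least 0.8 was found in 30.5% of the 210 pairs and in 7.82% of all pairs of 10042 other genes of that level, chosen in the same way. These pairs share their libraries and are not independent of each other.

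Timp2, Mmp14 and Mmp2, the inhibitor, activator and protease of the cell-surface complex, ran together. Pearson's r was 0.97 between Timp2 and Mmp14 (permutation p = 0.00030, adjusted 0.0146) and Spearman's rho was 0.95 (permutation p = 0.0011, adjusted 0.040). Between Mmp2 and Mmp14, r was 0.95 (permutation p = 9.9e-05, adjusted 0.0104) and rho was 0.98 (permutation p = 0.00040, adjusted 0.040). Between Timp2 and Mmp2, r was 0.96 (permutation p = 0.00035, adjusted 0.0146) and rho was 0.93 (permutation p = 0.0022, adjusted 0.059). Without the 2 mice farthest from the median of the more abundant gene, these r were 0.97, 0.97 and 0.93 in the same order. Timp2 and Mmp14 also ran with genes outside the complex, with r = 0.92 for Timp2 with Loxl3 and r = 0.93 for Mmp14 with Adamts15.

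Timp1 was positively related to Loxl1, with r = 0.97 (permutation p = 0.00020, adjusted 0.0139) and rho = 0.98 (permutation p = 0.00040, adjusted 0.040), and r = 0.89 without WT mice 3 and 4. It ran against Timp3, with r = -0.90 (permutation p = 0.0016, adjusted 0.032), rho = -0.86 (permutation p = 0.011, adjusted 0.087) and r = -0.81 without AKO mouse 8 and WT mouse 3. The inhibitors Timp3 and Timp4 ran together, with r = 0.86 (permutation p = 0.0087, adjusted 0.043), rho = 0.88 (permutation p = 0.0072, adjusted 0.085) and r = 0.94 without the same mice. Over the 210 pairs, no pair kept an adjusted p under 0.05 when the 2 farthest mice were left out. The 720 pairings of 6 mice set a floor on p, so no pair on its own could pass that adjustment at any r. When WT mouse 4 alone was left out, 4 pairs passed. These 4 were Mmp2 with Mmp14, Loxl1 with Timp1, Timp2 with Loxl3 and Mmp19 with Mmp15, so that Timp2 with Mmp14, Timp2 with Mmp2, Timp3 with Timp1 and Timp3 with Timp4 did not pass. The largest absolute r of all pairs was that of Mmp19 with Mmp15, with r = -0.98 (permutation p = 9.9e-05, adjusted 0.0104), rho = -0.95 (permutation p = 0.0011, adjusted 0.040) and r = -0.93 without WT mice 3 and 4.

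**Figure D4:**
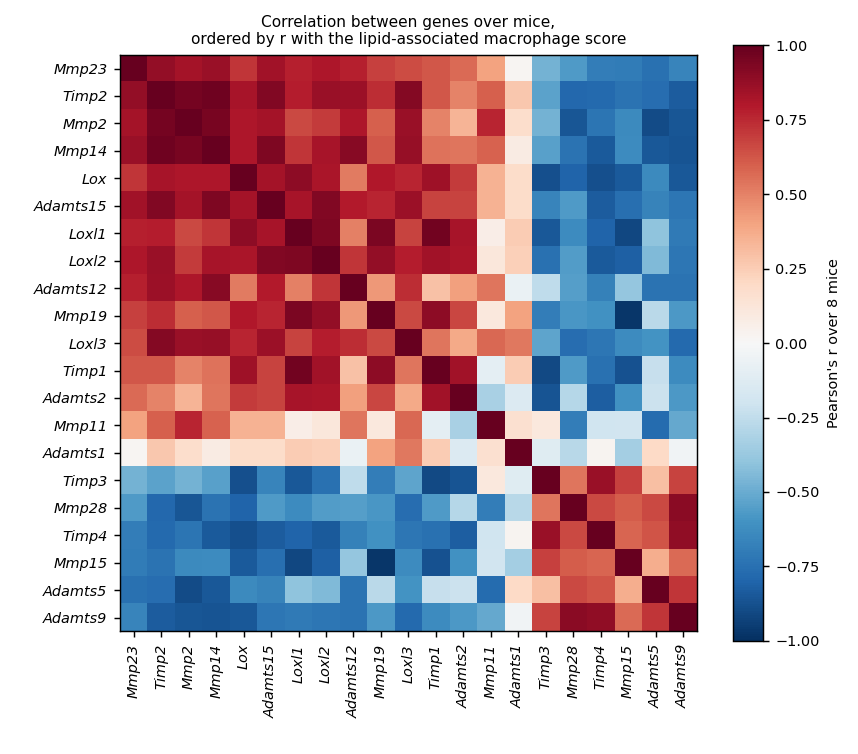
Pearson's r over the 8 mice between 21 genes, from -1 (blue) to 1 (red), in the order of each gene's r with the lipid-associated macrophage score. Mmp23, Timp2, Mmp2 and Mmp14 form the red corner at the upper left, while Timp3, Timp4, Mmp28, Mmp15, Adamts5 and Adamts9 at the lower right are blue against it.

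The levels were also set beside the scores of the cell types in the tissue. Of 42 relations (21 genes by 2 scores), 23 had an adjusted permutation p under 0.05. With the lipid-associated macrophage score, 10 genes were positively and 5 negatively related, and with the fibroblast and adipose progenitor score 8 genes were positively related. An absolute r of at least 0.8 with the macrophage score was reached by 52.4% of the 21 genes and by 20.6% of 10734 other genes, and with the fibroblast score by 33.3% and by 12.7% of 10732 other genes. The 2 scores were themselves related over the mice (r = 0.79, permutation p = 0.020; rho = 0.83, permutation p = 0.015), so their relations with a gene are not separate.

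With the macrophage score, Mmp14 had r = 0.92 (permutation p = 0.00025, adjusted 0.0035) and rho = 0.98 (permutation p = 0.00040, adjusted 0.0167). Mmp2 had r = 0.92 (permutation p = 9.9e-05, adjusted 0.0035) and rho = 0.93 (permutation p = 0.0022, adjusted 0.0187), and Timp2 had r = 0.93 (permutation p = 0.00020, adjusted 0.0035) and rho = 0.90 (permutation p = 0.0046, adjusted 0.024). Without AKO mouse 9 and WT mouse 4, the 2 mice farthest from the median score, r was 0.97 for Mmp14, 0.92 for Mmp2 and 0.93 for Timp2. With the deviations taken from each group's mean, r was 0.87, 0.89 and 0.89 in the same order.

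Among the negative relations with the macrophage score, Adamts5 had r = -0.81 (permutation p = 0.0081, adjusted 0.024), rho = -0.76 (permutation p = 0.037, adjusted 0.070) and r = -0.70 without those 2 mice (permutation p = 0.118). Timp4 had r = -0.79 (permutation p = 0.012, adjusted 0.027), rho = -0.83 (permutation p = 0.015, adjusted 0.040) and r = -0.70 without them (permutation p = 0.118). Without WT mouse 4 alone, r was -0.80 for both. Over all 42 relations, none kept an adjusted p under 0.05 without the 2 farthest mice. The 720 pairings of 6 mice set a floor on p, so no relation on its own could pass that adjustment at any r. Without WT mouse 4, 3 relations passed (Mmp14, Mmp2 and Timp2 with the macrophage score).

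With the fibroblast score the closest relation was that of Timp2, with r = 0.93 (permutation p = 0.0011, adjusted 0.0092), rho = 0.95 (permutation p = 0.0011, adjusted 0.0187) and r = 0.92 without AKO mouse 3 and WT mouse 4. Loxl3 had r = 0.88 (permutation p = 0.0033, adjusted 0.0174), rho = 0.88 (permutation p = 0.0072, adjusted 0.034) and r = 0.85 without those mice. Mmp11 and Adamts1 had absolute r of 0.52 or less with both scores.

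The adipocyte score fell into 2 separate sets of mice, 9.43, 9.42 and 9.43 in AKO mice 3 and 9 and WT mouse 3, and 9.92 to 10.3 in the other 5, so no pooled correlation is given for it. Of the 23 genes with a mean of at least 5 TPM, 8 were higher in each of those 3 mice than in any of the other 5 (Timp2, Lox, Loxl1, Loxl2, Loxl3, Mmp3, Mmp14 and Adamts15), 2 were lower (Timp3 and Timp4) and 13 did neither. Of 10745 other genes of that level, 19.99% were higher and 8.17% lower in this way. Timp4 was between 64.9 and 86.0 TPM in the 3 mice, against 123 to 232 TPM in the other 5. Mmp14 was between 71.3 and 101 TPM in them, against 34.5 to 67.0 TPM in the other 5. Of the 3, 2 are AKO mice and 1 is a WT mouse.

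**Figure D5:**
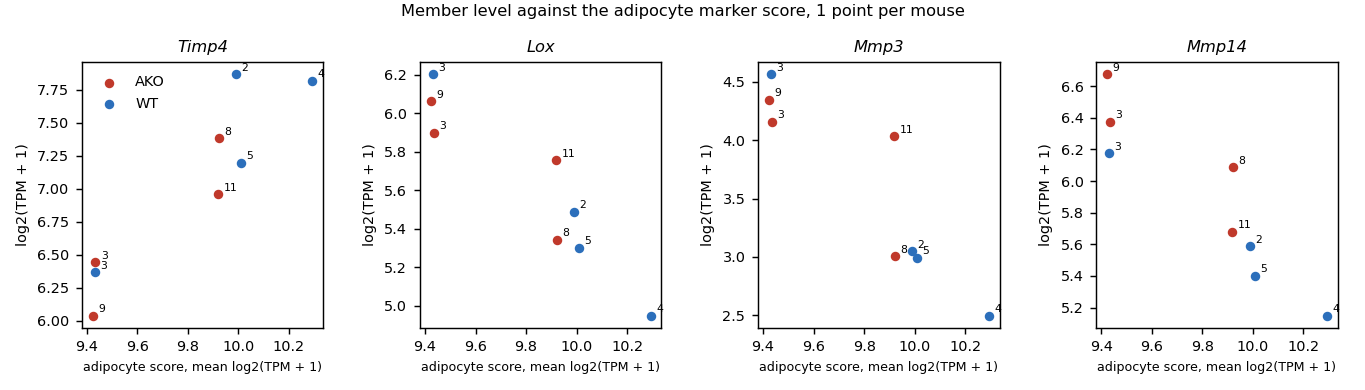
Level of Timp4, Lox, Mmp3 and Mmp14 as log2(TPM + 1) against the adipocyte marker score (mean log2(TPM + 1) of 15 markers), with 1 numbered point per mouse, AKO red and WT blue. AKO mice 3 and 9 and WT mouse 3 sit together at a score of about 9.4, apart from the other 5 mice.

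The marker lists are given beside the shares over all genes, of which 53.8% had a log2 change above 0 and 4.75% an unadjusted limma p under 0.05. Of the 11 lipid-associated macrophage markers, 11 had a log2 change above 0 (median 0.80, 2 with limma p under 0.05), and their summed level was 4884 to 8630 TPM in AKO mice and 2031 to 7263 TPM in WT mice. Of 13 fibroblast and progenitor markers, 11 were above 0 (median 0.20, 1 with p under 0.05), with sums of 6964 to 8113 TPM in AKO mice and 6586 to 8696 TPM in WT mice. Of 15 adipocyte markers, 13 were below 0 (median -0.18, 2 with p under 0.05), with sums of 36239 to 48639 TPM in AKO mice and 35331 to 52967 TPM in WT mice. Of 13 general macrophage markers, 12 were above 0 (median 0.41, 1 with p under 0.05), with sums of 3729 to 6532 TPM in AKO mice and 2334 to 5393 TPM in WT mice. The groups overlapped in each of these sums, and no marker passed an FDR of 0.05 in limma. The part of the cell makeup in the values of Mmp2, Mmp14, Timp2, Timp4 and the other genes was not tested.

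Less common cell types were covered by shorter lists. Of the tested markers, 5 of 5 B and plasma cell genes (median log2 change 0.59, 3 with limma p under 0.05), 6 of 6 T cell genes (0.14, none) and 5 of 6 mast cell genes (0.68, 1) were above 0. So were 4 of 5 neutrophil genes (0.18, 1), while Ly6g was listed at 0. Among 6 myofibroblast genes 3 were above 0, among 10 mesothelial genes 3, and among 9 endothelial genes 3. Among 6 skeletal muscle genes 2 passed the filter. Of the epididymal epithelium list no gene passed it, and Lcn8 was listed at 0. The summed level of that list was 0.30 to 1.56 TPM in AKO mice and 0.23, 5.04, 11.5 and 0.34 TPM in WT mice. Crisp1, a secreted epididymal protein, reached 7.57 TPM in WT mouse 4, and Lcn5, an epididymal lipocalin, 3.98 TPM in WT mouse 3. Mmp7 was 10.51 TPM in WT mouse 3 but 0.08 TPM in WT mouse 4. In AKO mouse 9, where the list summed to 0.30 TPM, Mmp7 was 3.63 TPM. The part of such tissue in the values of WT mice 3 and 4 was not tested.

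Other genes of matrix turnover were read from lists drawn up by function, and none of them passed an FDR of 0.05 in limma. Cysteine cathepsins, the lysosomal proteases that also degrade matrix, had 9 of 10 tested genes above 0 (median log2 change 0.41). Ctsk, the collagenolytic cathepsin K, averaged 299 ± 96.3 TPM in AKO mice and 143 ± 98.2 TPM in WT mice, the only 1 of the list with an unadjusted limma p under 0.05. Ctss averaged 1115 ± 266 TPM in AKO mice and 691 ± 358 TPM in WT mice (SD, n = 4 each), and both cathepsins were lowest in WT mouse 4.

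All 6 tested genes of the plasminogen system were above 0 (median 0.25), with none at an unadjusted limma p under 0.05. Serpine2, a serpin that inhibits plasminogen activators, averaged 40.4 ± 4.41 TPM in AKO mice and 34.5 ± 4.38 TPM in WT mice (SD, n = 4 each). Of the ADAM family, the membrane-bound relatives, 8 of 10 were above 0 (median 0.26, none with p under 0.05), and Adam12 averaged 21.9 ± 4.75 TPM in AKO mice and 16.6 ± 6.18 TPM in WT mice. Adam19 averaged 11.2 ± 3.57 TPM in AKO mice and 8.03 ± 2.48 TPM in WT mice.

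Genes that process or crosslink collagen had medians near 0. Of 15 partners in collagen hydroxylation and crosslinking, 7 were above 0 and 8 below (median -0.02, none with limma p under 0.05). P4ha2, a prolyl hydroxylase subunit, averaged 19.5 ± 1.78 TPM in AKO mice and 23.7 ± 3.50 TPM in WT mice, and Plod3, a lysyl hydroxylase, 93.0 ± 4.96 TPM in AKO mice and 104 ± 8.28 TPM in WT mice (SD, n = 4 each). Of 8 proprotein convertases and astacins, which activate proteases and trim procollagen, 3 were above 0 (median -0.03, none with p under 0.05). In that list Pcsk7 averaged 13.9 ± 0.683 TPM in AKO mice and 15.4 ± 0.783 TPM in WT mice, and Pcolce, an enhancer of procollagen trimming, 95.3 ± 23.8 TPM in AKO mice and 75.2 ± 32.3 TPM in WT mice.

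Among substrates, 8 of 14 fibrillar and basement membrane collagen genes were above 0 (median 0.04), and Col18a1 was the only 1 with an unadjusted limma p under 0.05. Col18a1, the source of endostatin, averaged 94.5 ± 8.02 TPM in AKO mice and 123 ± 24.1 TPM in WT mice, and Col4a5 7.07 ± 1.09 TPM in AKO mice and 5.60 ± 1.27 TPM in WT mice (SD, n = 4 each). Of 16 elastic fibre genes 11 were above 0 (median 0.05), and 3 had p under 0.05, 2 higher and 1 lower in AKO mice. Mfap2, a microfibril glycoprotein, averaged 21.2 ± 5.39 TPM in AKO mice and 13.1 ± 5.36 TPM in WT mice, and Fbln1, fibulin 1, 24.2 ± 2.72 TPM in AKO mice and 17.99 ± 5.87 TPM in WT mice.

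A further 3 short lists completed the set. Of 3 tested hyalectan genes, the large proteoglycans cleaved by ADAMTS proteases and their partners, 1 was above 0, and Vcan (versican) averaged 9.15 ± 2.53 TPM in AKO mice and 9.41 ± 2.41 TPM in WT mice. Ncan averaged 4.26 ± 1.28 TPM in AKO mice and 3.50 ± 0.792 TPM in WT mice. Of 6 ADAMTS-like genes 4 were above 0 (median 0.09), with Adamtsl4 at 8.74 ± 2.58 TPM in AKO mice and 12.3 ± 4.20 TPM in WT mice and Adamtsl5 at 10.8 ± 2.98 TPM in AKO mice and 8.71 ± 3.68 TPM in WT mice. Of 9 other regulators of metalloproteases 4 were above 0 (median -0.05). In that list Lrp1, the endocytic receptor that clears MMPs and TIMPs, averaged 443 ± 77.9 TPM in AKO mice and 367 ± 94.96 TPM in WT mice, and Cav1 1852 ± 174 TPM in AKO mice and 2307 ± 423 TPM in WT mice (SD, n = 4 each). None of these genes had an unadjusted limma p under 0.05.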

How the data were processed

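RNA from epididymal fat of 4 AKO and 4 WT mice was measured by sequencing. Trizol extraction and an Illumina TruSeq RNA kit were used, per the labels' protocols. The authors deposited 1 table per mouse with 152298 transcript rows in TPM (transcript abundance relative to the library total), summing to 1000000 within rounding. Per the submitters' processing notes, HISAT2, DESeq2 and mm9 were used, in roles and versions that are not stated. Which program gave the TPM and on which annotation is not given in these sources. Depth, and so counting precision, cannot be read from TPM. The numbers in the labels mark different animals, and p-values cover the spread between the 8 mice.

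Rows were summed per gene identifier, and 55141 of 55487 identifiers matched a symbol. A further 401 rows under locus identifiers (0.605% to 0.943% of TPM) were left out. Gene types, chromosome names and exon overlaps came from GENCODE M21, and the promoter sequences from RefSeq. Genes that reached 1 TPM in 4 or more mice were tested on log2(TPM + 1) with limma 3.58.1 (R 4.3.3, trended variance), and the fit was checked on simulated data. Changes of low genes come out too small on this scale. Single rows were tested the same way.

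Permutation tests went through all 70 arrangements or 40320 pairings, and the ranks for Spearman's rho came from SciPy 1.17.1. A correlation was not given for a measure whose values fell into 2 sets of at least 3 mice, set apart by over 0.4 of the range, a rule made after the values were seen. It removed 27 of 69 planned relations. Alternatives were a pseudocount of 0.1, no filter, median-ratio scaling, the highest row per gene, sample quality weights, leaving out each mouse, and correlations centred on group means or without extreme mice, of which those without WT mouse 4 and all those of the pairs were added later.

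All Timp and lysyl oxidase genes, the 10 other genes with the highest mean, the 8 with the smallest p, those whose groups did not overlap and those with a mouse far from its group are given per mouse. Of each pathway list the 2 genes with the smallest p are named. In the plasminogen list 1 of them is not reported here. The genes and lists were chosen with earlier results of these data known.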

Additional observations from a re-analysis of the deposited data

Results flagged for a closer look

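A mouse was far from the other 3 of its group for 5 genes, in 6 of 64 groups looked at, where chance gives about 1 in 20. The test was Dixon's, on the gap over the range at its 95% critical value. Mmp7, or matrilysin, a protease of epithelial cells, was far out in both groups. It had 3.63 TPM in AKO mouse 9 against 0 to 0.11 TPM in the other AKO mice. In WT mouse 3 it had 10.51 TPM against 0 to 0.24 TPM in the other WT mice. Mmp7 was below the filter for testing and reached 1 TPM in these 2 mice only, so its 2 flags cannot be set against the chance rate. Timp3 was 246.26 TPM in AKO mouse 8 against 157 to 168 TPM in the other AKO mice. Adamts1 was 22.0 TPM in AKO mouse 3 against 16.8 to 17.1 TPM, and Adamts7 was 5.22 TPM in AKO mouse 8 against 3.54 to 3.72 TPM. Mmp3 was 22.65 TPM in WT mouse 3 against 4.65 to 7.28 TPM in the other WT mice.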

How the results depend on the processing

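With a threshold at FDR 0.05 in limma, no gene of the set passed in any alternative, and none of its rows passed with a pseudocount of 0.1, with no filter or without each mouse, the alternatives run for rows. In limma 5 genes of the set had an unadjusted p under 0.05. Over all genes 4 passed an FDR of 0.05, and 1 to 5 when a mouse was left out. The count of 5 stayed at 5 with a pseudocount of 0.1 and became 6 with median-ratio scaling and 9 with sample quality weights. It fell to 4 with no filter, where Mmp14 had a limma p of 0.051. With the highest row per gene it was 4 of 29 tested, and it was 2 to 10 when a mouse was left out. Groups did not overlap for 2 genes, for 1 after median-ratio scaling, for 1 with the highest row per gene, and for 2 to 5 when a mouse was left out, where fewer mice make overlap less likely. The shares over all genes in the same alternatives are not given here, so these counts cannot be read against the shares of the main fit. Of the 31 tested genes, 21 kept their direction throughout and 10 turned in some alternative. With the highest row per gene the log2 changes were -0.055 for Timp1, -0.19 for Adamts10 and 0.0028 for Mmp19, and with sample quality weights 0.0066 for Adamts1 and 0.062 for Mmp19. When a mouse was left out they ranged from -0.41 to 0.55 for Timp1, -0.13 to 0.15 for Mmp15, -0.078 to 0.14 for Adamts2, -0.22 to 0.16 for Mmp19, -0.25 to 0.053 for Timp3, -0.059 to 0.25 for Loxl1, -0.011 to 0.31 for Adamts14 and -0.029 to 0.14 for Adamts4. The cause was not tested. Of 42 relations with scores, 23 passed, against 0 without the 2 farthest mice and 3 without WT mouse 4, and of 210 pairs 49 passed, against 0 and 4. For both counts of 0, the 720 pairings of 6 mice set a floor on p. No relation or pair on its own could pass there at any r. Several at that floor could have passed together, but the lowest permutation p was 0.0056 for the relations and 0.0028 for the pairs. Some r were smaller without those mice, as for Timp4 with the macrophage score (-0.79 to -0.70). Others were not, as for Mmp14 with that score (0.92 to 0.97). No paired analysis was possible because AKO and WT mice have just the number 3 in common, and it marks different animals. TPM holds no depth, so no limit from depth can be given.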
